A study of Mus musculus with 8 samples.

Results

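The genes described here act in mitosis, as parts of the spindle, the kinetochore, the condensin complex and the signals that order them. They were taken from a list of 54 gene symbols, and each symbol was matched to a row of the value table through the platform's gene annotation. Of the 54, 46 had a row with that symbol alone and 8 were not measured here. Cks1b shares its row with a second symbol, and Cenpf, Cenpi, Cenpl, Cenpm, Ckap5, Psrc1 and Ncapg are unnamed in the annotation used. The 46 stand among 14860 genes with 1 row each, where the row with the highest mean over all 8 arrays was kept for a gene with several rows, which among these genes was Plk1 only.

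In mitosis, microtubules of the spindle attach to chromosomes at kinetochores, protein assemblies built on centromeres. A checkpoint of Bub and Mad proteins holds the anaphase promoting complex inactive until attachment is complete, and the kinases Plk1, Aurka and Aurkb time each step. Condensin folds chromatin into compact chromosomes, separase then cuts the links between sister chromatids, and cytokinesis divides the cell. Many of these genes are transcribed mainly in G2 and mitosis and are highly expressed in proliferating tumour cells.

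The material was B16F0, a mouse melanoma line that makes pigment. Total RNA of 4 samples of parental cells after 24 h in medium without serum was compared with RNA of 4 samples of exosomes, small vesicles collected from medium that such cells had conditioned for 24 h. Both groups come from 1 line, with no allele, drug or other treatment named, and 1 Affymetrix exon array was hybridised per sample after labelling of an equal mass of cDNA. The sources used here do not state how the vesicles were purified or whether RNA outside them was removed.

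Values are log2 levels as deposited. They are shares of the RNA placed on an array, so that fewer copies per vesicle and a larger share of other RNA cannot be told apart. Across all values the 75th percentile was 8.53 ± 0.06 on cell arrays and 7.13 ± 0.06 on exosome arrays (± SD over 4 arrays). The median of odour, pheromone and taste receptor genes, which served as background, was 3.60 ± 0.06 on cell arrays and 4.20 ± 0.07 on exosome arrays. For both measures the groups did not overlap (two-sided exact permutation p = 0.0286, which is the lowest p possible with 4 arrays against 4), and their part in the results below was not tested. A gene counted as above background in a group if all 4 of its arrays passed the receptor genes' 95th percentile, a limit of 5.70 ± 0.03 in cells and 6.46 ± 0.05 in exosomes. All 8 measured pigment cell markers were above background in both groups. Of 10 measured markers of other cell types, only Col1a1 and Col1a2 were, at means of 6.72 to 6.92 in either group. Whether samples came from separate cultures is not stated, so p-values reflect only the spread among these arrays, possibly a technical one, and the number of arrays limits the precision.

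The comparison of exosomes with cells asks which mitotic mRNAs the vesicles carried, and at what share relative to the cells that released them. On the deposited scale nearly every mitotic gene was lower in exosomes. Of the 46 genes, 44 fell, Nek2 rose and Cks2 had no call (limma, adjusted p below 0.05), and the direction of 10 of them turned under another scaling. Of all genes, 52.1% were lower and 14.6% higher by the same test. Falls of at least 2-fold were found for 38 of the 46, beside 37.8% of all genes. For 44 of the genes every exosome array lay below every cell array (52.1% of all genes), and for Nek2 every one lay above (13.6% of all genes). The median log2 fold change was -2.12 for the mitotic genes and -0.39 for all genes.

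The mitotic genes were expressed in cells, and expressed genes fell in general. Above background in cells were 45 of the 46 genes, Cks2 being the exception. Of 9225 genes above background in cells, 79.6% were lower in exosomes, 7.27% were higher and 60.0% were at least 2-fold lower, and their median log2 fold change was -1.30. In exosomes 25 of the 46 mitotic genes were above background on all 4 arrays, 5 on some arrays and 16 on none. The share of cell-expressed mitotic genes that were above background in exosomes was 55.6%, beside 57.0% of all cell-expressed genes. The mitotic genes lay higher in cells, and at like cell levels fewer of them passed. At levels of 10 to 11, 12 of 14 did, beside 97.5% of all genes there, and at 9 to 10, 4 of 8 beside 84.6%. At 8 to 9 it was 6 of 12 beside 61.1%, and at 7 to 8 it was 1 of 8 beside 34.6%, without a test. For 15 genes above background in cells and on no exosome array only a lower bound of the fall can be given. With these at their bound the median was -1.69, beside -1.05 for all cell-expressed genes treated in the same way. The bounds hold on the deposited scale only, and some genes fell by less than their bound under another scaling.

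**Figure D1:**
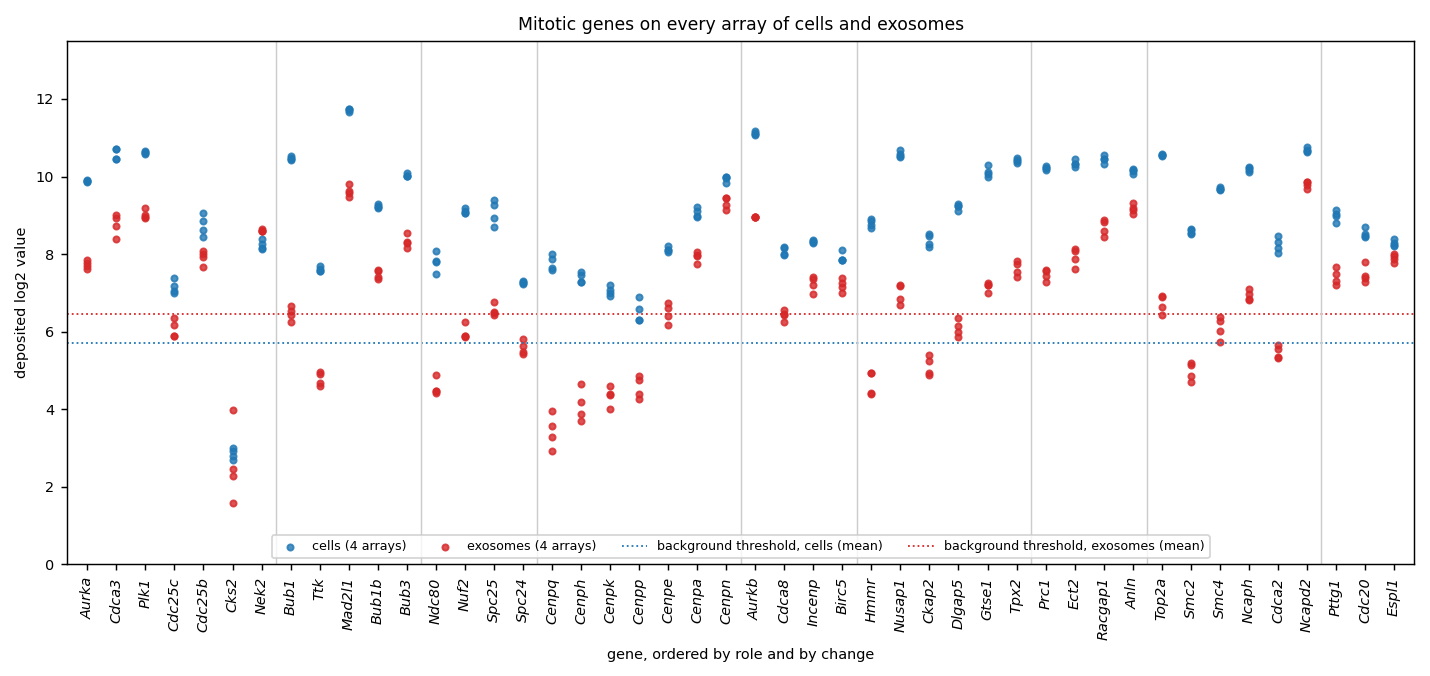
Deposited log2 value of the 46 mitotic genes on each of the 4 cell arrays (blue) and 4 exosome arrays (red), grouped by role between grey lines, with the mean background limits of 5.70 in cells and 6.46 in exosomes as dotted lines. Red points lie below blue points for 44 genes, above them for Nek2 and on both sides of them for Cks2, as deposited, and the direction of 10 genes turned under another scaling.

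The size of the fall was compared with that of other genes of like level in cells. Here genes above background on no exosome array stood at their bound. At cell levels of 10 to 11, the 14 mitotic genes had a median log2 fold change of -2.58, beside -1.68 for 994 genes, and 11 of the 14 lay below that median. Between 9 and 10 the medians were -2.33 for 8 mitotic genes and -1.75 for 1808 genes, and 5 of the 8 lay below the latter. Between 8 and 9 they were -1.61 for 12 mitotic genes and -1.57 for 2244 genes, and between 7 and 8 they were -0.87 for 8 mitotic genes and likewise -0.87 for 1791 genes. By these medians the mitotic genes thus lay close to other genes between 8 and 9 and under them from 9 to 11, as a description without a test. Genes at levels above 11, Mad2l1 and Aurkb among them, were not compared in this way. In the range from 7 to 8 only 1 of the 8 mitotic genes was above background in exosomes, so most of that median is bounds. A bound depends on the cell level alone, so the like medians there do not show a like fall. The measured medians there were -2.76 for the mitotic genes and -1.21 for all, mostly from exosome values not above background. Across the 46 genes the cell level and the log2 fold change had r = -0.22 and rho = -0.15, and the cell level and the exosome level had r = 0.76. These points share arrays, the cell level enters the fold change, and 16 of the genes were above background on no exosome array.

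The zero point of these changes depends on how arrays are scaled to each other. After quantile normalization the median log2 fold change was 0.03 for all genes and -1.23 for the mitotic genes. After cyclic loess the medians were 0.01 and -0.95, and after centring arrays on the background genes they were -0.98 and -2.71. The median of the mitotic genes thus lay below that of all genes on each scale, with measured values used also for genes below background in exosomes. Against the median of genes above background in cells, 34 of the 46 fell further as deposited and after centring, and 35 after quantile normalization or cyclic loess. Called lower under each of the 4 scalings were 33 of the 46, beside 30.9% of all genes and 46.1% of genes above background in cells. The sign of 10 genes turned with the scaling, namely Nek2, Cdc25b, Cenpa, Cenpn, Incenp, Birc5, Anln, Ncapd2, Cdc20 and Espl1. Cdc25c, Cks2 and Pttg1 kept their sign but were not called lower under each scaling.

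**Figure D2:**
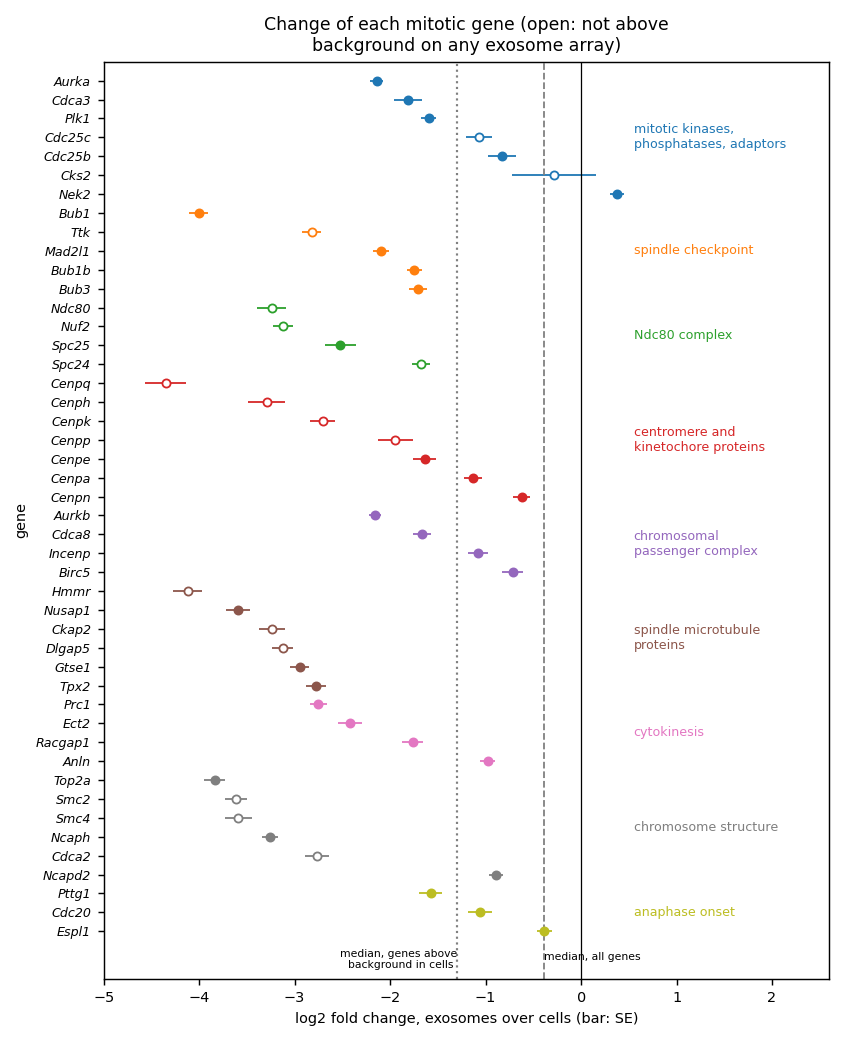
Log2 fold change of exosomes over cells (point) with its standard error (bar) for the 46 mitotic genes, coloured by role, with the medians of all genes (-0.39) and of genes above background in cells (-1.30) as vertical lines. Open symbols mark genes above background on no exosome array, for which the fall is known only as a bound or, for Cks2, not at all, and Nek2 lies to the right of 0 at 0.37, which was -0.22 after centring on background genes.

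Promoters of mitotic genes are known to hold a cell cycle homology region, or CHR, where the DREAM and MYB-MuvB complexes bind, and CCAAT boxes bound by the factor NF-Y. Windows from 250 bases before to 50 bases after the transcription start were searched on both strands for TTTGAA, the core letters of the CHR, and for CCAAT. The RefSeq promoter table (GRCm38.p6) held 53 windows for 46 of the 54 listed genes, of which 38 were measured on the arrays. TTTGAA was found in 30 of the 53 windows, or 56.6%, beside 17.9% of 32851 windows of all genes and 11.8% of 9735 windows of genes above background in cells. CCAAT was found in 83.0% of the windows, beside 37.4% and 37.8%, and both motifs together in 52.8%, beside 6.95% and 4.73%. In 1 place a TTTGAA and a CCAAT match overlapped. Of 36 TTTGAA matches, 28 began between base -100 and base 50 from the start, which is 77.8%, beside 41.6% of matches over all windows. Windows of genes with several starts were counted separately. The measured genes Aurkb, Cdc25c, Cdca2, Dlgap5, Incenp, Smc4, Spc24 and Tpx2 had no window.

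Of the measured genes in the promoter table, 22 had a TTTGAA match and 16 had none. Their median log2 fold changes were -1.79 with a match and -2.40 without. With the 5 genes of each group that have only a bound set there, the medians were -1.73 and -1.45, so that their order turned and no difference can be read from them. A match is a description of letters, and no match says only that these letters are not in the window. The 6 windows below are shown for genes that differ in their values in exosomes. Cenpq and Hmmr were below background there, Top2a, Plk1 and Espl1 fell by different amounts, and Nek2 rose, where Espl1 and Nek2 turned direction under another scaling. Each is printed 5′ to 3′ on the strand of its gene, and capitals mark TTTGAA and CCAAT or their reverse complements TTCAAA and ATTGG.
Cenpq (chr17:40934525-40934824, minus strand): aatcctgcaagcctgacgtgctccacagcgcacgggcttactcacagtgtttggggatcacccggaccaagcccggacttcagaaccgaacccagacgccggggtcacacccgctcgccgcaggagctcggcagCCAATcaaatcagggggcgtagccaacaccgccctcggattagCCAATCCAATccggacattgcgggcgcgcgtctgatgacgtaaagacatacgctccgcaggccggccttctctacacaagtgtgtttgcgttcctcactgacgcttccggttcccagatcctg
Hmmr (chr11:40733388-40733687, minus strand): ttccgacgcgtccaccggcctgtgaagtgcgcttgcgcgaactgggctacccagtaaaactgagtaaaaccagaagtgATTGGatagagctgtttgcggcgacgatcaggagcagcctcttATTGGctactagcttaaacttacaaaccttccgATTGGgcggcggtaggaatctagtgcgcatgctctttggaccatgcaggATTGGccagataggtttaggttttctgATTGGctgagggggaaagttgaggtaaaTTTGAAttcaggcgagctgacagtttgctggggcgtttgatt
Top2a (chr11:99024140-99024439, minus strand): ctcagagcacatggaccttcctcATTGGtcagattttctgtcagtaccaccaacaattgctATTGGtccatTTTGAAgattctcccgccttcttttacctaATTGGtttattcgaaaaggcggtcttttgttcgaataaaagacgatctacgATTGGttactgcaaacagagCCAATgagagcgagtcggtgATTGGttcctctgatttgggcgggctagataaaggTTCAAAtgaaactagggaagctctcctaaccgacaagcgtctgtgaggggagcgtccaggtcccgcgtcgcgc
Plk1 (chr7:122159185-122159484, plus strand): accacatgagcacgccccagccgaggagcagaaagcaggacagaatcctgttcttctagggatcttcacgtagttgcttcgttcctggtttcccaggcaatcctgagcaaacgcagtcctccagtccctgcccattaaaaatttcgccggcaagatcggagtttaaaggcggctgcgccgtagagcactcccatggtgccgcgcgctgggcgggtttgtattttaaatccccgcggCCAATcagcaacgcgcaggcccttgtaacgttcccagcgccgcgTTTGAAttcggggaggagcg
Espl1 (chr15:102296043-102296342, plus strand): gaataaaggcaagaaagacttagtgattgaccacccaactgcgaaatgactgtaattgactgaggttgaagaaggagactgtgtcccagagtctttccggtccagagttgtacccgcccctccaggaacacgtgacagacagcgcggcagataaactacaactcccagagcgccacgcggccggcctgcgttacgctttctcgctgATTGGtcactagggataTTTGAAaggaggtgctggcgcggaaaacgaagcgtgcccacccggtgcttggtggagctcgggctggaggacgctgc
Nek2 (chr1:191821223-191821522, plus strand): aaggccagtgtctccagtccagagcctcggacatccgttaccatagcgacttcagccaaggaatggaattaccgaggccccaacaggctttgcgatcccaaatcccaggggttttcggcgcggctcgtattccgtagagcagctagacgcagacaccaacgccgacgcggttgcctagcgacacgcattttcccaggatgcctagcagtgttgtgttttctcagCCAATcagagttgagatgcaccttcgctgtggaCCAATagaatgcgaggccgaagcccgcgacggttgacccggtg
Hmmr has TTTGAA from base 9 after the start, Plk1 from base 31 and Espl1 from base -27. Top2a has matches from bases -179 and -23. The windows of Cenpq and Nek2 hold CCAAT and no TTTGAA, and the first of these genes was below background in exosomes while the second rose as deposited.

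**Figure D3:**
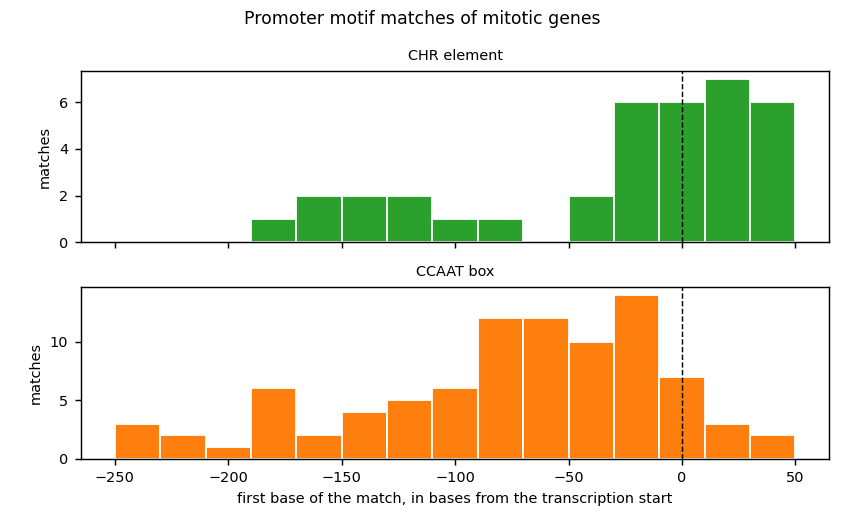
Number of matches of the CHR letters TTTGAA (upper panel) and of CCAAT (lower panel) in promoter windows of the listed mitotic genes, in bins of 20 bases by distance of the first base from the transcription start (dashed line). Of the 36 CHR matches 28 (77.8%) lie between -100 and 50, and of the 89 CCAAT matches 64 (71.9%). Over all windows these shares were 41.6% and 53.8%.

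The counts by role that follow stand beside the 79.6% of cell-expressed genes that were lower as deposited and the 46.1% under each scaling. With so few genes in a role, a count of falls alone does not set it apart. Fold changes and bounds given below are on the deposited scale unless another scaling is named. Mitotic kinases, phosphatases and their adaptors had among the smaller falls, with 5 of 7 genes lower and 1 higher. Their median log2 fold change was -1.07, or -0.83 with bounds. Aurka, the kinase of the centrosome and spindle poles, read 9.90, 9.88, 9.88 and 9.86 in cells and 7.62, 7.78, 7.84 and 7.70 in exosomes. It fell 4.42-fold (-2.14 ± 0.07 on the log2 scale, the error being the SE over 4 arrays in each group, limma adjusted p = 5.08e-08), and every exosome array lay far below every cell array. Plk1, the kinase that drives entry into mitosis and spindle assembly, read 10.63, 10.61, 10.67 and 10.58 in cells and 8.94, 8.95, 9.02 and 9.18 in exosomes, a fall of 3.03-fold. The log2 fold change of Plk1 was -0.60 after quantile normalization and -0.31 after cyclic loess. A second row of Plk1 lay below the background limits in both groups, at means of 4.90 in cells and 4.57 in exosomes, and did not stand for the gene.

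Nek2, a kinase that loosens the link between centrosomes before mitosis, differed from all other measured genes of the list in direction. It read 8.16, 8.14, 8.38 and 8.25 in cells and 8.59, 8.64, 8.59 and 8.59 in exosomes, so that every exosome array lay above every cell array. The rise was 1.30-fold (0.37 ± 0.07, limma adjusted p = 0.00234) on the deposited scale, and it was larger after quantile normalization (1.64) and cyclic loess (1.84) and turned to -0.22, with no call (adjusted p = 0.0694), after centring on background genes. Cdc25b, a phosphatase that activates Cdk1, fell 1.78-fold as deposited but was higher after quantile normalization and cyclic loess. Cdc25c, a phosphatase of the same family, was above background on no exosome array and was at least 1.61-fold lower as deposited. It had no call after quantile normalization (-0.26) and cyclic loess (-0.17), both smaller falls than that bound. Cdca3, known for promoting mitotic entry, fell 3.51-fold. Cks2, a small subunit of Cdk complexes, was below background on all 8 arrays, between 1.58 and 3.97, and gives no fold.

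All 5 measured genes of the spindle checkpoint fell, with a median log2 fold change of -2.10, or -1.75 with bounds, and all 5 were lower under each scaling. Bub1, a kinase that recruits checkpoint proteins to kinetochores, read 10.49, 10.46, 10.42 and 10.53 in cells and 6.43, 6.25, 6.67 and 6.55 in exosomes. The cell arrays all lay far above the background limit, while only 2 of 4 exosome arrays passed it, and Bub1 fell 16.05-fold (-4.004 ± 0.10, limma adjusted p = 2.71e-08). Bub3, which binds Bub1 and BubR1 and docks them at kinetochores, read 10.01, 10.08, 10.02 and 10.02 in cells and 8.16, 8.30, 8.29 and 8.54 in exosomes, a fall of 3.27-fold. Mad2l1, the checkpoint protein that sequesters Cdc20, read 11.67, 11.74, 11.70 and 11.74 in cells and 9.57, 9.47, 9.80 and 9.63 in exosomes and fell 4.27-fold. It stayed well above the background limit on every exosome array. Bub1b, which encodes the checkpoint protein BubR1, fell 3.36-fold. Ttk, the kinase Mps1 at the top of the checkpoint, was above background on no exosome array and was at least 2.22-fold lower.

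The 4 subunits of the Ndc80 complex, which grips microtubules at the kinetochore, all fell (median -2.82, or -1.93 with 3 genes at their bound), and none was above background on all exosome arrays. Ndc80 itself read 7.81, 7.48, 7.83 and 8.08 in cells and 4.41, 4.88, 4.48 and 4.46 in exosomes and was at least 2.53-fold lower (limma adjusted p = 2.16e-07). Spc24, which with Spc25 anchors the complex to the inner kinetochore, read 7.26, 7.27, 7.30 and 7.23 in cells and 5.81, 5.63, 5.43 and 5.47 in exosomes and was at least 1.75-fold lower. The exosome values of both genes lay below the background limit on each array, so their order there has no meaning. Nuf2, the partner of Ndc80 in its microtubule-binding head, was at least 6.26-fold lower as deposited. Its log2 fold change was -2.16 after quantile normalization and -1.74 after cyclic loess, smaller falls than its log2 bound of 2.65. Spc25 passed the limit on 2 of 4 exosome arrays and fell 5.74-fold.

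Among centromere and kinetochore proteins all 7 measured genes fell as deposited (median -1.95, or -0.94 with bounds), and 5 were lower under each scaling. Cenpq, a subunit of the inner kinetochore, read 7.64, 7.60, 8.01 and 7.88 in cells and 3.94, 2.92, 3.29 and 3.58 in exosomes. No exosome value reached the background limit, so the fall was at least 2.50-fold (limma adjusted p = 2.8e-07), beside a measured log2 fold change of -4.35. Cenpn, the inner kinetochore protein that recognises nucleosomes with the centromeric histone, read 9.97, 9.84, 9.998 and 9.99 in cells and 9.15, 9.26, 9.44 and 9.45 in exosomes. It fell only 1.54-fold as deposited (-0.62 ± 0.09), and it was higher after quantile normalization (0.43) and cyclic loess (0.70). In exosomes Cenpn was well above and Cenpq well below the background limit on every array.

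The centromeric histone gene Cenpa fell 2.19-fold as deposited, was higher after cyclic loess (0.33) and was at 0.22 with no call after quantile normalization. Cenpe, a kinesin that moves chromosomes to the spindle equator, fell 3.11-fold with 2 of 4 exosome arrays above background. Cenph, Cenpk and Cenpp, further subunits of the inner kinetochore, were above background on no exosome array, and their falls were at least 1.91-fold, 1.501-fold and 1.04-fold. The last bound is close to 1, since the Cenpp level in cells, between 6.29 and 6.89, was near the exosome limit.

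The chromosomal passenger complex corrects faulty attachments and later guides cytokinesis, and all 4 of its genes fell as deposited (median -1.37). Its kinase gene Aurkb read 11.17, 11.09, 11.07 and 11.13 in cells and 8.95, 8.96, 8.95 and 8.95 in exosomes. The exosome arrays were nearly identical for this gene, and it fell 4.47-fold (-2.16 ± 0.06, limma adjusted p = 3.36e-08). Birc5, which encodes the small subunit survivin, read 8.12, 7.85, 7.84 and 7.84 in cells and 6.99, 7.27, 7.14 and 7.39 in exosomes, a fall of 1.64-fold as deposited that was a rise after quantile normalization (0.61) and cyclic loess (0.68). Incenp, the scaffold of the complex, fell 2.11-fold as deposited and was likewise higher after those 2 normalizations. Cdca8, which encodes borealin, fell 3.17-fold with 1 of 4 exosome arrays above background.

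Genes of spindle microtubule proteins all fell, with 6 of 6 lower under each scaling, and a median log2 fold change of -3.18, or -2.77 with 3 genes at their bound. Hmmr, a protein of the spindle poles, read 8.91, 8.75, 8.84 and 8.67 in cells and 4.39, 4.43, 4.94 and 4.94 in exosomes. The exosome values lay below the background limit throughout, and the fall was at least 5.05-fold (limma adjusted p = 7.3e-08). Tpx2, which activates Aurka and nucleates microtubules near chromosomes, read 10.34, 10.39, 10.48 and 10.42 in cells and 7.54, 7.40, 7.76 and 7.81 in exosomes and fell 6.86-fold. Nusap1, which binds and bundles spindle microtubules, fell 12.1-fold, and Gtse1, a microtubule-associated protein, fell 7.72-fold, both with all exosome arrays above background. Ckap2 and Dlgap5, which stabilise spindle microtubules, were above background on no exosome array. As deposited they were at least 3.73-fold and 6.77-fold lower. For Dlgap5 the log2 fold change was -2.10 after quantile normalization and -1.71 after cyclic loess. Both are smaller falls than its log2 bound of 2.76.

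All 4 cytokinesis genes fell as deposited (median -2.09) and all 4 were above background in both groups. Their cell levels lay between 10 and 11, where 87.1% of all cell-expressed genes were lower and 97.5% were above background in exosomes. Prc1, which bundles the central spindle, read 10.22, 10.17, 10.23 and 10.26 in cells and 7.44, 7.28, 7.59 and 7.56 in exosomes and fell 6.73-fold (-2.75 ± 0.09, limma adjusted p = 4.36e-08). Anln, the scaffold anillin of the contractile ring, read 10.15, 10.07, 10.21 and 10.17 in cells and 9.05, 9.14, 9.19 and 9.31 in exosomes. It fell 1.97-fold (-0.98 ± 0.08) as deposited and was higher after cyclic loess (0.34) and at 0.0742 with no call after quantile normalization. Ect2, which activates the GTPase RhoA at the division plane, fell 5.35-fold, and Racgap1, its binding partner at the central spindle, fell 3.39-fold.

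Of 6 measured genes of chromosome structure, 5 were lower under each scaling, and the median log2 fold change was -3.42, or -2.68 with 3 genes at their bound. Top2a, the topoisomerase that untangles sister chromatids, read 10.57, 10.54, 10.58 and 10.55 in cells and 6.64, 6.44, 6.88 and 6.92 in exosomes. With 3 of 4 exosome arrays above background, it fell 14.3-fold (-3.84 ± 0.11, limma adjusted p = 3.75e-08). The subunits of condensin did not fall alike. Ncapd2, a subunit that binds chromatin, read 10.75, 10.63, 10.65 and 10.68 in cells and 9.67, 9.86, 9.77 and 9.87 in exosomes. Far above background on every exosome array, it fell 1.85-fold as deposited (-0.89 ± 0.07) and was higher after cyclic loess (0.32) and at 0.01 with no call after quantile normalization.

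The condensin ring genes Smc2 and Smc4 were above background on no exosome array and were at least 4.37-fold and 9.38-fold lower. Ncaph, which closes the condensin ring, fell 9.56-fold with all exosome arrays above background. Cdca2, which brings the phosphatase PP1 to chromatin, was at least 3.43-fold lower.

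The 3 genes of anaphase onset fell as deposited (median -1.06), stayed above background on all exosome arrays, and were lower under each scaling in 0 of 3 cases. Pttg1, which encodes securin, the inhibitor of separase, read 9.05, 9.13, 8.98 and 8.80 in cells and 7.67, 7.20, 7.31 and 7.47 in exosomes. It fell 2.98-fold (-1.57 ± 0.12, limma adjusted p = 4.69e-06), and after quantile normalization or cyclic loess it had no call. Espl1, which encodes separase, read 8.40, 8.23, 8.28 and 8.21 in cells and 7.76, 7.95, 7.87 and 8.00 in exosomes. The groups did not overlap, and its fall of 1.31-fold (-0.38 ± 0.08, limma adjusted p = 0.00327) turned to a rise after quantile normalization (0.96) and cyclic loess (1.08). Cdc20, the activator of the anaphase promoting complex, fell 2.08-fold as deposited and was higher after those 2 normalizations.

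Partner genes were compared within arrays, where a constant shift of an array cancels. Of 17 pairs of partners or paralogs, 14 had both genes measured. For 7 pairs the difference between the genes did not overlap between the groups, which gives the smallest possible p (two-sided exact permutation, p = 0.0286), and adjusted over 14 pairs each p was 0.0571, so that 0 pairs passed 0.05 and 7 were under 0.05 unadjusted. The log2 value of Bub1 minus that of Bub1b was 1.197 to 1.30 on the cell arrays and -1.17 to -0.90 on the exosome arrays, a difference of -2.26 between their log2 fold changes, with Bub1 above background on 2 of 4 exosome arrays. Espl1 minus Pttg1 was -0.90 to -0.59 in cells and 0.09 to 0.75 in exosomes, a difference of 1.19. The differences were -0.64 for Tpx2 over its kinase Aurka, -0.66 for Ect2 over Racgap1 and -1.04 for Mad2l1 over its target Cdc20, so that the first gene of each had the lower fold change. The differences of 2.40 for Cenpp over Cenpq and 0.84 for Spc24 over Spc25 rest on exosome values below background or, for Spc25, partly so.

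The other 7 pairs overlapped between groups. The difference of log2 fold changes was 0.02 for Aurka over Aurkb, with values of -1.27 to -1.19 in cells and -1.33 to -1.11 in exosomes (exact permutation p = 0.743). It was -0.04 for Bub1b over Bub3 (exact p = 0.543), -0.03 for Smc2 over Smc4 (0.857) and -0.12 for Ndc80 over Nuf2 (0.600). A p above the threshold does not show that the genes of a pair changed alike, and for the condensin and Ndc80 pairs the exosome values were below background. For Incenp over Birc5 the difference was -0.36 (exact p = 0.0571). It was -0.58 for Cenph over Cenpk and 0.24 for Cdc25b over Cdc25c (exact p = 0.0571 and 0.286), where Cenph, Cenpk and Cdc25c were below background on all exosome arrays.

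**Figure D4:**
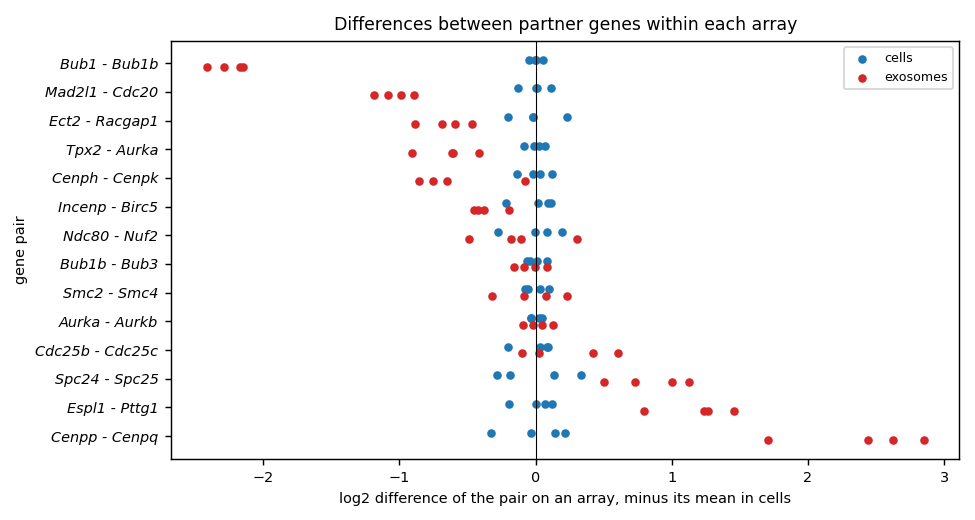
Log2 difference between the genes of each of 14 pairs on every array, minus the pair's mean in cells, for 4 cell arrays (blue) and 4 exosome arrays (red). Red points lie apart from blue points for 7 pairs, from Bub1 and Bub1b on the left (-2.26) to Cenpp and Cenpq on the right (2.40), and around them for Aurka and Aurkb.

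Other genes of mitosis, grouped in 8 lists by known role, also mostly fell as deposited. Of 101 measured genes 95 fell, 2 rose and 4 had no call, with a median log2 fold change of -1.74 when 35 of them stood at their bound, and 69 were lower under each scaling. These counts stand beside the 79.6% and 46.1% of cell-expressed genes given above, and the medians that follow are with bounds. All 15 genes of cohesin, which holds sister chromatids together, and of its regulators fell (median -2.17), and 13 were lower under each scaling. So did 8 of 9 mitotic kinesins (median -1.87, 8 lower under each scaling) and 11 of 11 cyclins and regulators of Cdk1 (median -2.05, 9 under each scaling). Of 14 genes of the anaphase promoting complex 12 fell and 7 were lower under each scaling (median -1.60), and of 21 other kinetochore and centromere genes these numbers were 19 and 11 (median -1.43). All 19 centrosome and spindle pole genes (median -1.82, 14 lower under each scaling) and 3 condensin II genes (median -2.32, 2 under each scaling) fell. So did 8 of 9 factors that transcribe mitotic genes (median -1.29, 5 under each scaling).

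From each list the genes with the lowest and highest measured change are given, and many of the former have only a bound, so no rank follows. Kif11, the kinesin that pushes spindle poles apart, fell 15.8-fold (-3.98 ± 0.11) with 1 of 4 exosome arrays above background, while the chromosome kinesin Kif4 was at 0.04 ± 0.09 with no call as deposited, was higher after quantile normalization (1.33) and cyclic loess (1.502) and was lower after centring (-0.55). Cenpb, which binds centromeric repeat DNA, rose 1.76-fold (0.82 ± 0.09, limma adjusted p = 6.19e-05), a rise that had no call after centring on background genes (0.22). Anapc5, a scaffold subunit of the anaphase promoting complex, rose 1.44-fold (0.53 ± 0.08), which turned to -0.0682 (no call) after that centring, while its fellow subunit Anapc4 was at least 4.98-fold lower. Esco2, an acetyltransferase of cohesin, was at least 5.95-fold lower, and Cdca5, the cohesin protector sororin, fell 2.02-fold as deposited and was higher after quantile normalization and cyclic loess.

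Mastl, a kinase that keeps mitotic phosphorylation in place, was at least 4.57-fold lower, and Cdc25a fell 1.25-fold as deposited but was higher after the same 2 normalizations. Ncapd3 of condensin II was at least 4.98-fold lower, while Ncaph2 of the same complex fell 1.59-fold as deposited and was higher after them. Zwilch, a kinetochore protein of the checkpoint, fell 5.31-fold. Sass6, which builds the cartwheel of new centrioles, was at least 5.28-fold lower, whereas Pcnt, the scaffold pericentrin, fell 1.35-fold as deposited and was higher after quantile normalization and cyclic loess. Nfyc, a subunit of the CCAAT-binding factor, was at least 3.31-fold lower, and Mybl2, which binds with the MuvB complex at CHR elements, was at -0.17 ± 0.09 with no call and was higher after the same normalizations.

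**Figure D5:**
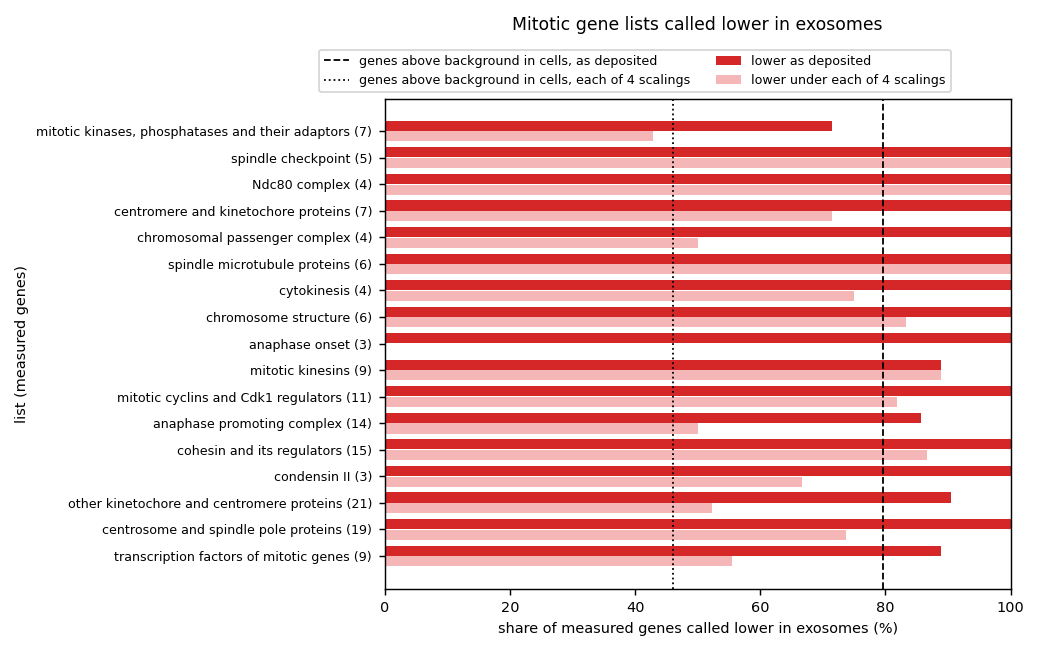
Share of measured genes called lower in exosomes as deposited (dark bars) and under each of 4 scalings (light bars), for 9 roles of the main genes and 8 lists of other mitotic genes, with the number measured in brackets. The vertical lines mark genes above background in cells, 79.6% as deposited (dashed) and 46.1% under each scaling (dotted), and the light bars run from 0 for anaphase onset to 100% for the checkpoint, Ndc80 and spindle microtubule genes.

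The genomic span of a gene in RefSeq was set against its change. Across the 46 mitotic genes the log10 span and the log2 fold change had r = -0.34 and rho = -0.39, and across 9215 genes above background in cells r was -0.03. This is a description over genes that share arrays, and 16 of the 46 fold changes rest on genes above background on no exosome array.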

How the data were processed

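Affymetrix mouse exon arrays measured RNA of 4 cell and 4 exosome samples. The deposited values are on a log2 scale from 0.65 to 14.1. They come from RMA in Affymetrix Expression Console, with build mm8, per the submitters' processing notes, which give no versions here. A gene's value is a mean over its core probesets, per the series' design text. Of 23332 transcript clusters, 14996 had 1 gene symbol, 1019 several and 7317 were unnamed here. The RefSeq table (GRCm38.p6) matched 14941 by gene identifier and gave spans and promoters.

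Groups were compared with limma 3.58.1 in R 4.3.3 (lmFit, eBayes, two-sided, Benjamini-Hochberg over all clusters, no dim filter). Fold changes are differences of mean log2 values. A bound sets the cell mean against the mean exosome background limit, from 835 receptor genes, both as deposited, so it is no minimum under another scaling. The authors' own background test, on control probesets, was not used here. The labels do not say whether a replicate number marks a shared culture, so samples were not paired in the main fit. Correlations of same-numbered deviations ran from -0.055 to 0.001, which cannot decide this. The fit was run on simulated data with few changed clusters and no difference of scale between groups, so that run does not cover the scaling. Tests on pairs used scipy 1.17.1, and figures matplotlib 3.10.9 in Python 3.11.15.

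The members and lists were chosen with earlier results of these data known. Values by sample are given for the lowest and highest measured log2 fold change in each role, genes called higher and the 5 highest exosome means, and in other lists the extremes are named. Alternatives were 3 scalings, a dim filter, other priors, array weights, a block, stricter thresholds, other background limits and leaving out arrays.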

Additional observations from a re-analysis of the deposited data

Results flagged for a closer look

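Of 152 groups of 4 arrays examined among the named genes and pairs, 7 held an array whose gap to its nearest neighbour took up most of the range of the group. Chance gives about 1 in 20 groups, so this number is not above what is usual. In exosomes, Nek2 was 8.64 on replicate 2 beside 8.59 on the other arrays, and Ndc80 was 4.88 on replicate 2 beside 4.41 to 4.48, below the background limit. Nuf2 was 6.25 on exosome replicate 4 beside 5.87 to 5.90, also below the limit. Cenpb was 8.65 on exosome replicate 1 beside 8.88 to 8.90, and Mybl2 was 8.03 on the same array beside 8.27 to 8.30. In cells, Birc5 was 8.12 on replicate 1 beside 7.84 to 7.85, and Mastl was 8.52 on replicate 2 beside 8.68 to 8.70.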

How the results depend on the processing

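The 44 falls and 1 rise among mitotic genes kept their number under array weights, the trended and robust prior, the dim filter and adjusted p below 0.01, and leaving out 1 array gave 44 to 45 falls. With the replicate block 44 mitotic genes were lower and 1 higher, 95 and 2 in the other lists, and the block changed no call of a named gene.

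Scaling moved the counts. Mitotic genes called higher numbered 7 after quantile normalization and 10 after cyclic loess. There were 0 after centring on background genes, and 0 when at least 2-fold was required. In the other lists the numbers were 14, 16, 0 and 0. Of all genes, quantile normalization gave 4956 lower and 4476 higher, cyclic loess 4872 and 4603, and centring 12254 and 366. Higher calls over all genes were 767 with the dim filter, 1264 at adjusted p below 0.01 and 383 at 2-fold.

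Log2 fold changes that turned sign after cyclic loess and quantile normalization were Cdc25b (0.64, 0.53), Cenpa (0.33, 0.22), Cenpn (0.70, 0.43), Incenp (0.36, 0.30), Birc5 (0.68, 0.61), Anln (0.34, 0.0742), Ncapd2 (0.32, 0.01), Cdc20 (0.41, 0.33), Espl1 (1.08, 0.96), Cdc25a (1.04, 0.81), Cdca5 (0.45, 0.34), Ncaph2 (0.80, 0.68), Pcnt (0.73, 0.71) and Mybl2 (1.30, 1.15). After centring, Nek2 (-0.22), Anapc5 (-0.0682) and Kif4 (-0.55) turned. Leaving out 1 array gave -0.0098 to 0.085 for Kif4 and -0.75 to 0.0488 for Cks2, which was called lower without exosome replicate 3.

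Pairs with an adjusted exact permutation p of 0.05 or less numbered 8 after quantile normalization, each at 0.05. There were 10 after cyclic loess, each at 0.04, against 0 as deposited, where the lowest adjusted p was 0.0571. This p takes few values, so a small change in the number of pairs without overlap moves the whole count. The sign turned for Bub1b over Bub3 (0.15 and 0.0352 after these). Leaving out 1 array gave -0.0213 to 0.0526 for Aurka over Aurkb, -0.2584 to 0.0063 for Ndc80 over Nuf2 and -0.1107 to 0.0738 for Smc2 over Smc4. With 3 arrays in a group or in the paired sign-flip test, p cannot fall below 0.0571 or 0.125. The correlation of cell level and change was -0.0491 after quantile normalization and -0.025 after cyclic loess. Above background in exosomes were 19 to 30 mitotic genes at the 99th and 90th percentile, and 25 to 26 without 1 array. The cause of these shifts was not tested. The exosome background limit keeps 15 falls as bounds on the deposited scale.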
